A study of Homo sapiens with 10 samples.

Results

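The replication-dependent histone genes encode the H1 linker histones and the H2A, H2B, H3 and H4 core histones that package newly made DNA. They were followed in BJ cells, human fibroblasts immortalized with hTERT (telomerase), before and after nutlin-3a. Genes were taken from the Ribo-Seq table by symbol, namely those that begin with HIST1H, HIST2H, HIST3H or HIST4H. This gave 40 of 11337 genes, made up of 5 H1, 10 H2A, 14 H2B, 3 H3 and 8 H4 genes. By cluster, 34 carry a HIST1, 3 a HIST2, 2 a HIST3 and 1 a HIST4 symbol. Histone genes outside the table were not analysed here. The RNA-Seq table, which lists 13279 genes, holds 28 of the 40 (3 H1, 8 H2A, 10 H2B, 1 H3 and 6 H4 genes).

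All libraries came from the same BJ line, grown in medium with 10% fetal calf serum, and the labels name no modification other than hTERT. The 5 groups of each assay were cells without treatment (control) and cells given nutlin-3a, a compound that keeps MDM2 from binding p53, for 2, 4, 6 or 19 h. RNA-Seq was made from poly(A) RNA and Ribo-Seq from the mRNA fragments that ribosomes protect. Each group is 1 library, so no difference has a replicate check and no test was possible. The error given with a log2 change is the counting standard error (SE) from the recovered read numbers, and it covers counting only. The recovered read totals, to which the FPKM values are scaled, were 7744898 to 14460726 for Ribo-Seq and 23845559 to 27554289 for RNA-Seq. Where the study lists a library, its number of non-rRNA reads is near this total. For Ribo-Seq the study lists many times more sequenced reads, and most of the mapped ones were rRNA. All 9 fibroblast markers searched for were above 5 FPKM in both controls, and of 8 markers of epithelial, endothelial and blood cells only CD68 was. CDKN1A, the p53 target for p21, stood at 164, 488, 2729, 3708 and 3227 FPKM in the Ribo-Seq control and at 2, 4, 6 and 19 h. The study describes a batch effect of sequencer runs and set each condition against a control of its own run. The labels here name no run. The study's list of samples holds a control with the 6 and 19 h libraries, but not those at 2 and 4 h. The part of the run in the changes below, also in the step from 4 to 6 h, was not tested. Fewer cells in S phase and less histone mRNA or translation per cell cannot be told apart.

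Histones are needed in bulk only while DNA is being copied, and their genes are switched on together as cells enter S phase. The coactivator NPAT, a substrate of cyclin E with CDK2, gathers at the histone gene clusters. Unlike other mRNAs, those of the replication-dependent genes end in a stem-loop instead of a poly(A) tail. SLBP binds that loop and serves in processing, translation and decay of the mRNA, which is quickly degraded when DNA synthesis stops. Some of these genes can also give a longer polyadenylated transcript by use of a site beyond the loop.

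The promoters of genes that were followed together are shown first. They hold short elements found in some classes only, beside elements found in all classes. RefSeq promoters (GRCh38.p14, 250 bases before the start to 50 after it) were matched by symbol or synonym for 32 of the 40 genes. The 250 upstream bases were searched on both strands for TATAA, the core of the TATA box, CCAAT, the CCAAT box, ATTTGCAT, the octamer that Oct-1 binds, AAACACA, the H1 box, and GGTCC, the core of the H4 element. The 120 bases before the start are printed for the gene of each class with the highest Ribo-Seq value in the control among those with a promoter, 5′ to 3′ on the coding strand, with these 5 motifs on either strand in capitals.
HIST1H1C, chr6:26056471-26056590, minus strand: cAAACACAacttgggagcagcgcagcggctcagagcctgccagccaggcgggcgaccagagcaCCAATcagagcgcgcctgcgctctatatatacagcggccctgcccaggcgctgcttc
HIST1H2AE, chr6:26216801-26216920, plus strand: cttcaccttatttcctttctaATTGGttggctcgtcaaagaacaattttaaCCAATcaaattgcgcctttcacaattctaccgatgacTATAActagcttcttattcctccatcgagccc
HIST1H2BJ, chr6:27132796-27132915, minus strand: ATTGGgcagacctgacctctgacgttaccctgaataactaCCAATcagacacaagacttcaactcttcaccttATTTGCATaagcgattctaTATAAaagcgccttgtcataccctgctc
HIST1H3H, chr6:27809931-27810050, plus strand: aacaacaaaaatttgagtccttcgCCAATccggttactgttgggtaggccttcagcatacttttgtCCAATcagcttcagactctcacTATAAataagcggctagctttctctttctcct
HIST1H4E, chr6:26204490-26204609, plus strand: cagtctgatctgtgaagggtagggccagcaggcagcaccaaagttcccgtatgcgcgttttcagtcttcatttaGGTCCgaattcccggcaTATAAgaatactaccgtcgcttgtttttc

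TATAA was found in 29 of 32 promoters (90.6%), against 6646 of the 35116 promoters in the RefSeq table (18.9%), and CCAAT in 28 (87.5%), against 11240 of the 35116. AAACACA was in 5 of 5 H1 promoters and in none of the other classes, against 4.82% of all promoters. ATTTGCAT was in 6 of 9 H2A and 5 of 9 H2B promoters and in none of H1, H3 or H4, against 1.63% of all. GGTCC was in 7 of 7 H4 promoters, but also in 40.7% of all promoters and in 1 of 5 H1, 3 of 9 H2B and 1 of 2 H3 promoters. CCAAT was in 3 of 7 H4 promoters and in every promoter of the other classes. For 4 H2A and H2B pairs that point away from each other (HIST1H2AI with HIST1H2BL, HIST1H2AM with HIST1H2BO, HIST1H2AG with HIST1H2BJ and HIST3H2A with HIST3H2BB) the windows share 253 to 271 bases, so these were searched from both sides. A single site, such as an octamer, can thus count for both partners. These matches describe letters and not binding.

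In Ribo-Seq the histone genes were little lower at 2 and 4 h and then fell together. Levels are given in FPKM, read numbers scaled to transcript length and library depth, and changes as log2 ratios to the control library with values under 1 FPKM set to 1. Of the 40 genes, 39 passed a filter of a mean of at least 5 FPKM over the 5 Ribo-Seq libraries. All 39 were at least 2-fold lower at 6 h, and all 39 at 19 h, where 7.89% and 14.3% of the 6529 transcripts that passed the filter were. The median of their log2 changes went through -0.39, -0.30, -2.96 and -4.55 at 2, 4, 6 and 19 h, against 0.014, 0.11, -0.014 and -0.18 over all transcripts. The median counting SE of these changes was 0.029 at 2 h and 0.116 at 19 h.

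**Figure D1:**
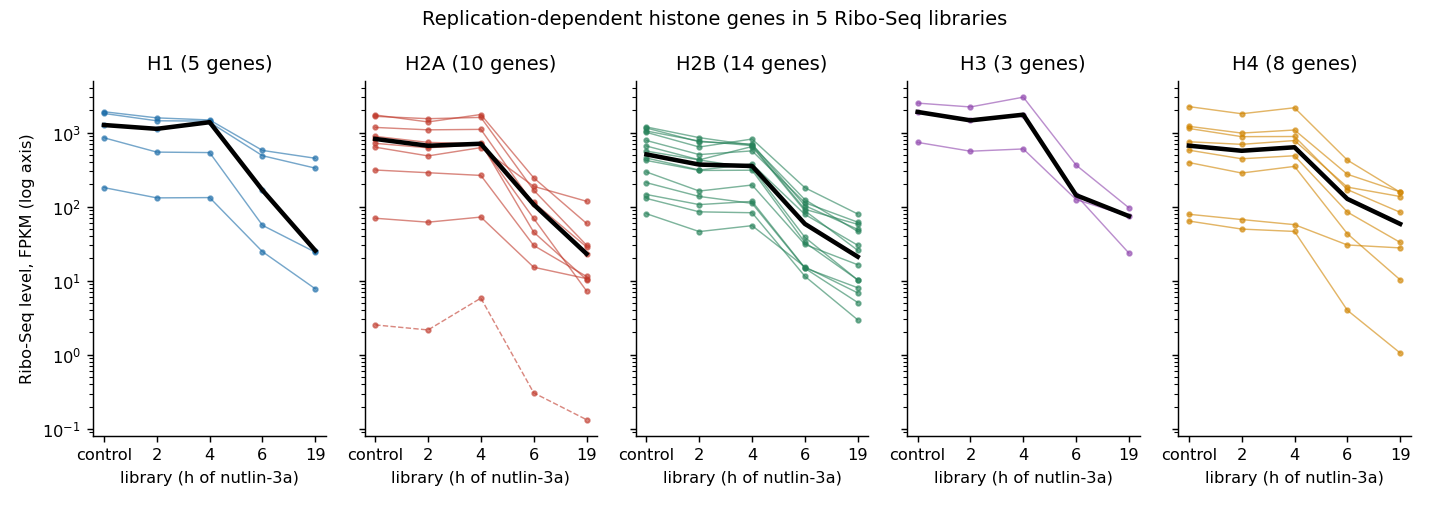
Ribo-Seq level in FPKM (log axis) of the 40 replication-dependent histone genes in the control and at 2, 4, 6 and 19 h of nutlin-3a, 1 library per point, with a panel for each class. Thin lines are genes, the dashed line is HIST2H2AA3, which did not pass the filter, and the thick line is the class median. Up to 4 h the 39 genes that passed the filter stay within 2-fold of the control, while HIST2H2AA3 rises at 4 h. All 40 lines go down from 4 to 6 h and again from 6 to 19 h.

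The small early change was uniform in sign. At 2 h all 40 genes were below the control, as were 48.3% of all transcripts that passed the filter, and none was 2-fold lower (0.199% of all transcripts) or 2-fold higher (2.11%). At 4 h the changes of the 39 genes ran from -0.93 to 0.27, again with none 2-fold lower (0.398%) or higher (2.50%). From 4 to 6 h, 38 of 39 fell at least 2-fold (7.37% of all transcripts), with HIST4H4 as the exception at -0.91. From 6 to 19 h, 27 of 39 fell at least 2-fold more (2.44%). All 40 fell at both of these steps in FPKM, which 48.4% of all transcripts did. No gene of the 39 was 2-fold higher at 6 h (5.42% of all transcripts) or at 19 h (6.19%).

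The falls were deep. At 6 h, 19 of 39 were at least 8-fold lower (1.04% of all transcripts), and at 19 h, 32 were (2.65%). At 19 h, 13 were at least 32-fold lower (0.475%). Of the 100 largest falls at 19 h, which are 1.53% of the transcripts tested, 26 were histone genes. The histone genes started high, since 19 of the 100 highest Ribo-Seq control values (0.882% of the table) were theirs, and at 19 h none of the 100 highest was. As values under 1 FPKM were set to 1, a gene that starts low cannot reach the deepest folds or ranks. The S phase gene PRIM1, for example, went from 12.0 to 0.088 FPKM at 19 h and counts as -3.58. The part of the high start in these counts was not tested.

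In reads, the 40 genes together held 2.26% of the recovered Ribo-Seq total in the control (265945 reads, exact binomial 95% interval 2.25 to 2.27%). This total is not all sequenced reads of the library, most of which were rRNA. The share then went through 1.77%, 1.93% and 0.362% at 2, 4 and 6 h to 0.181% at 19 h (14048 reads; 0.178 to 0.184%), which is 12.5-fold lower than the control. The loss was not even between the classes. H3 fell most in its share of the recovered total, 26.3-fold at 19 h, followed by H2B (19.2-fold), H2A (17.6-fold), H4 (9.49-fold) and H1 (7.29-fold). H1 genes therefore went from 20.5% to 35.0% of the histone reads and H4 genes from 20.9% to 27.4%, while H2A went from 23.7% to 16.8%, H2B from 24.3% to 15.7% and H3 from 10.7% to 5.08%. Such shares are set by the genes with most reads. Of the 4916 H1 reads at 19 h, HIST1H1C held 2553 and HIST1H1E 2014. The median log2 changes of the genes at 19 h gave another order, with H2A at -4.96, H3 at -4.70, H1 at -4.54, H2B at -4.37 and H4 at -3.80.

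**Figure D2:**
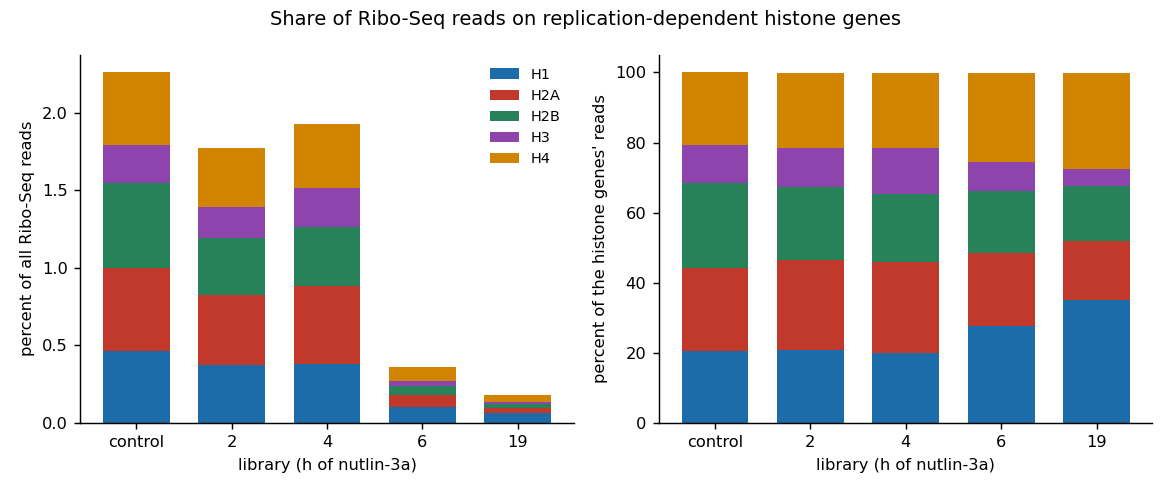
Share of Ribo-Seq reads on the replication-dependent histone genes in each library, by class, as percent of the recovered read total of the library (left) and as percent of the histone reads (right). The whole share goes from 2.26% in the control to 0.362% at 6 h and 0.181% at 19 h, and H1 grows from 20.5% to 35.0% of what is left.

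The H1 linker histones, which bind the DNA between nucleosomes, split into a pair that kept more of its level and 3 genes that lost nearly all of it. HIST1H1C stood at 1913, 1581, 1481, 574 and 450.3 FPKM in the control and at 2, 4, 6 and 19 h, or 16471 reads at first and 2553 at last. HIST1H1E stood at 1266, 1124, 1382, 487 and 331 FPKM. The 19 h levels of both were the 2 highest of the 40 genes, at log2 changes of -2.09 ± 0.03 and -1.93 ± 0.03 (counting SE). HIST1H1B, close to HIST1H1C in the control, stood at 1813, 1443, 1429.9, 167 and 25.5 FPKM, a 71.1-fold fall (-6.15 ± 0.12). HIST1H1D stood at 851, 545, 537, 56.0 and 24.3 FPKM and fell 35.1-fold. HIST1H1A, the lowest of the 5, fell 23.3-fold from 181 FPKM. The gap between the pair and the other 3 was already there at 6 h, where HIST1H1C and HIST1H1E were at -1.74 and -1.38 and the others between -3.93 and -2.87.

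The median log2 change of the H2A genes went through -0.20, -0.06, -3.31 and -4.96 over the 4 times. H2A pairs with H2B in the nucleosome core. HIST1H2AE stood at 1730.0, 1393, 1755, 245 and 59.5 FPKM over the 5 libraries, a 29.1-fold fall. HIST1H2AH stood at 1658, 1541, 1604, 167 and 30.2 FPKM and fell 54.8-fold. Neither was far from its control up to 4 h. HIST1H2AI stood at 1175, 1089, 1105, 107 and 23.1 FPKM. HIST1H2AM stood at 889, 737, 707, 114 and 28.6 FPKM. The log2 changes of these 4 lay between -0.33 and 0.02 at 2 and 4 h. The deepest fall of all 39 genes was that of HIST1H2AJ, at 716, 624, 688, 69.3 and 7.29 FPKM, which is 98.2-fold (-6.62 ± 0.27, with 28 reads at 19 h). HIST1H2AC fell least in the class, from 635, 484 and 627 FPKM to 188 at 6 h and 118 at 19 h (-2.43 ± 0.04).

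HIST2H2AA3 did not pass the filter. It has a near-identical copy in the genome, and only reads with a single hit were kept, so reads that both share are not in its value. It stood at 2.53, 2.16, 5.82, 0.306 and 0.133 FPKM, from 29, 25, 82, 3 and 1 reads. It too was lower at 6 and 19 h than in the 3 earlier libraries.

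The H2B genes were the lowest of the classes at 2 h. Their median log2 change was -0.61 then, with all 14 between -0.86 and -0.40. The 9 H2A genes lay between -0.39 and -0.11, so these ranges met without overlap. The genes at the edges, HIST1H2BO at -0.396 and HIST1H2AC at -0.392, were closer than the counting SE of HIST1H2BO (0.039). The ranges of H1 (-0.64 to -0.17) and H4 (-0.47 to -0.12) overlapped that of H2B, and the lowest H3 gene was at -0.396. The H2B median then went through -0.56, -3.28 and -4.37. HIST1H2BJ stood at 1191, 855, 677, 124 and 46.2 FPKM. HIST1H2BI stood at 1153, 752, 700.3, 103 and 49.3 FPKM. Both were lower at each later time. HIST1H2BG stood at 1049.9, 768, 667, 92.1 and 57.7 FPKM, again lower at each time. HIST1H2BC, with a 4 h value above its 2 h value, stood at 1008, 639, 819, 180.1 and 79.6 FPKM. These 4 genes, the highest of the class in the control, fell 12.7-fold to 25.8-fold by 19 h. The deepest H2B fall was that of HIST1H2BO (562 to 10.2 FPKM, 54.9-fold, -5.78 ± 0.24) and the smallest that of HIST3H2BB (80.3 to 6.86 FPKM, 11.7-fold, -3.55 ± 0.30).

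The octamer searched for above did not sort the H2B genes by the size of the fall. With it in the promoter, 5 genes had log2 changes at 19 h of -5.78 to -3.66 (median -4.69), and without it 4 genes had -5.36 to -3.55 (median -4.05), so the ranges overlapped. Within the divergent pairs the H2A and H2B partners were at -5.67 and -5.36 (HIST1H2AI and HIST1H2BL), -4.96 and -5.78 (HIST1H2AM and HIST1H2BO), -4.77 and -4.69 (HIST1H2AG and HIST1H2BJ) and -2.71 and -3.55 (HIST3H2A and HIST3H2BB). The HIST3 pair thus had the smaller falls on both sides.

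Only 3 H3 genes are in the table, and they include the highest histone value of all. H3 and H4 form the tetramer at the centre of the nucleosome. HIST1H3H stood at 2501, 2219, 3009, 364 and 96.4 FPKM, so its 4 h value was above its control (0.27 ± 0.02) and its 19 h value 26.0-fold below. HIST1H3F stood at 1900.0, 1462, 1745, 143 and 23.6 FPKM, an 80.7-fold fall (-6.33 ± 0.16). HIST1H3I stood at 737, 561, 601, 125 and 74.4 FPKM and fell 9.91-fold (-3.31 ± 0.09). The order of the 3 genes in the control was thus not their order at 19 h, when HIST1H3F was the lowest.

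The H4 genes had the smallest median change of the 5 classes at 19 h, -3.80, after -0.34, -0.21 and -2.57 at the earlier times. HIST1H4C stood at 2244, 1796, 2165, 425 and 156 FPKM and fell 14.3-fold. HIST1H4E stood at 1216, 985, 1084, 274 and 158 FPKM, with 20147 reads in the control, the most of any histone gene, and fell 7.69-fold. At 19 h both were at nearly the same level. HIST1H4H stood at 1138, 881, 886, 170.0 and 83.9 FPKM. HIST1H4J stood at 752, 694, 781, 184 and 137 FPKM, so it was above HIST1H4H at 6 and 19 h but not in the control. The H4 class held both the smallest fall of all 39 genes and the fifth largest. HIST4H4, the one member of its cluster, stood at 78.9, 67.0, 57.1, 30.4 and 27.7 FPKM (2.85-fold, -1.51 ± 0.08), and its step from 6 to 19 h was -0.13. HIST1H4I stood at 64.0, 49.8, 46.3, 3.99 and 1.06 FPKM (60.5-fold, -5.92 ± 0.44, with 11 reads at 19 h). Both have long reference transcripts (1918 and 1343 nt) and began close to each other in FPKM.

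**Figure D3:**
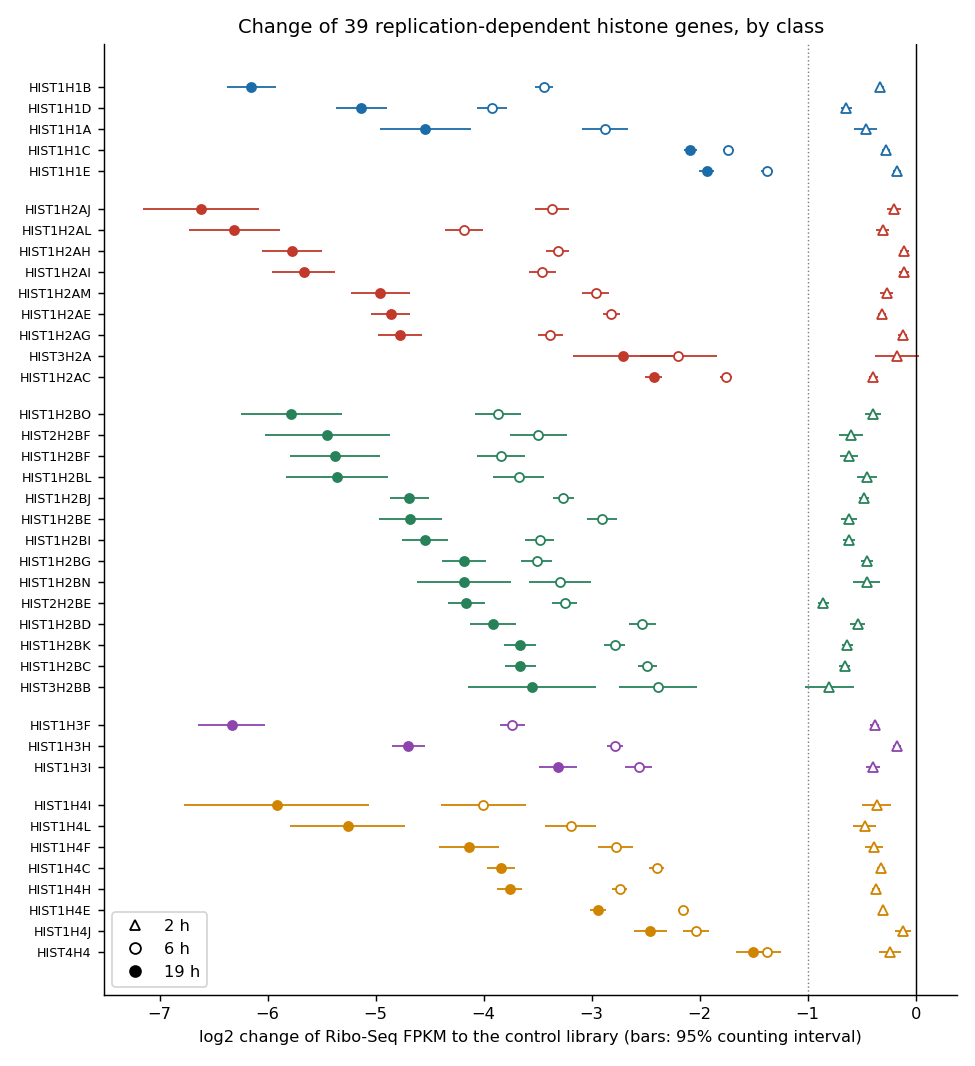
log2 change of Ribo-Seq FPKM to the control library at 2 h (triangles), 6 h (open circles) and 19 h (filled circles) for the 39 histone genes that passed the filter, coloured by class, with bars for the 95% counting interval and a dotted line at 2-fold lower. All 6 and 19 h points lie left of that line, and at 19 h HIST4H4, HIST1H1E, HIST1H1C, HIST1H2AC and HIST1H4J lie nearest to it.

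FPKM divides by the whole reference transcript, which was 364 to 2239 nt long for these genes, with 9 of 40 at 1000 nt or more. A level in FPKM is thus diluted where the reference transcript extends beyond the short stem-loop form, while the length itself cancels in a change within a gene. Whether reads beyond the stem-loop form enter the changes was not tested. At 19 h the 9 long transcripts had a median log2 change of -4.16 (-5.92 to -1.51) and the 30 shorter ones -4.61 (-6.62 to -1.93). The 6 genes still at 100 FPKM or more at 19 h were HIST1H1C, HIST1H1E, HIST1H4E, HIST1H4C, HIST1H4J and HIST1H2AC.

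The poly(A) RNA libraries held few reads of these genes. In the RNA-Seq control 21 of 28 histone genes were below 1 FPKM, as were 9.12% of the 11258 transcripts in both tables, and 15 had 10 reads or fewer. The log2 ratio of Ribo-Seq over RNA-Seq in the control had a median of 9.52 over the 28 genes (1.34 to 11.3) and of -0.36 over all transcripts in both tables. It was 8 or more for 19 of the 28 genes, and for 22 transcripts (0.195%) of the whole. The highest among histone genes was HIST1H3H, with 13916 Ribo-Seq and 8 RNA-Seq reads in the control. As RNA-Seq was made from poly(A) RNA, this ratio is not a measure of translational efficiency for these genes.

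The 7 histone genes with at least 1 FPKM in the RNA-Seq control took different courses in poly(A) RNA, while all 7 fell in Ribo-Seq. HIST1H2BK had the highest RNA-Seq level, with 20.5, 16.0, 17.9, 17.7 and 21.8 FPKM (400, 353, 359, 399 and 465 reads), while its Ribo-Seq level went through 782, 505, 566, 113 and 61.7 FPKM. HIST1H1C had 10.2, 8.92, 9.11, 9.52 and 8.55 FPKM in RNA-Seq, a log2 change at 19 h of -0.25 ± 0.16, beside its 4.25-fold fall in Ribo-Seq. HIST3H2A had 2.20, 3.14, 2.56, 1.98 and 2.01 FPKM in RNA-Seq and 69.8, 61.7, 72.4, 15.2 and 10.7 FPKM in Ribo-Seq. In these 3 genes the RNA-Seq change at 19 h did not exceed its 95% counting interval around 0. HIST1H2AG was lower in RNA-Seq too, with 1.14, 1.14, 0.512, 0.875 and 0.634 FPKM (61, 69, 28, 54 and 37 reads), a log2 change without the floor of -1.16 ± 0.33 at 4 h and -0.85 ± 0.30 at 19 h, beside -4.77 in Ribo-Seq at 19 h.

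In 3 others the poly(A) level went up. HIST1H2AC had 4.39, 4.62, 3.62, 9.91 and 13.1 FPKM in RNA-Seq (169, 201, 143, 441 and 550 reads), 2.98-fold higher at 19 h (1.58 ± 0.13). HIST1H2BD had 1.70, 1.93, 1.66, 3.36 and 4.62 FPKM (32, 41, 32, 73 and 95 reads), 2.72-fold higher at 19 h (1.44 ± 0.29), while its Ribo-Seq level went through 453, 312, 377, 78.5 and 30.1 FPKM. HIST2H2BE had 1.60, 1.35, 1.18, 2.92 and 3.78 FPKM (85, 81, 64, 179 and 219 reads), 2.36-fold higher (1.24 ± 0.18), while its Ribo-Seq level went through 294, 163, 196, 30.9 and 16.4 FPKM. In all 3 the RNA-Seq level was near or below the control up to 4 h and above it at 6 and 19 h, the same libraries in which Ribo-Seq was low. The log2 ratio of Ribo-Seq over RNA-Seq went from 7.18 to 3.18 for HIST1H2AC, from 8.06 to 2.70 for HIST1H2BD and from 7.52 to 2.12 for HIST2H2BE between the control and 19 h. Of these 3, only HIST1H2AC passed the filter in RNA-Seq, where 3 histone genes did. It was the 1 gene of 3 at least 2-fold higher at 6 h (1.65% of all transcripts) and at 19 h (2.26%), and none of the 3 was 2-fold lower at 6 h (4.87%) or 19 h (6.42%).

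**Figure D4:**
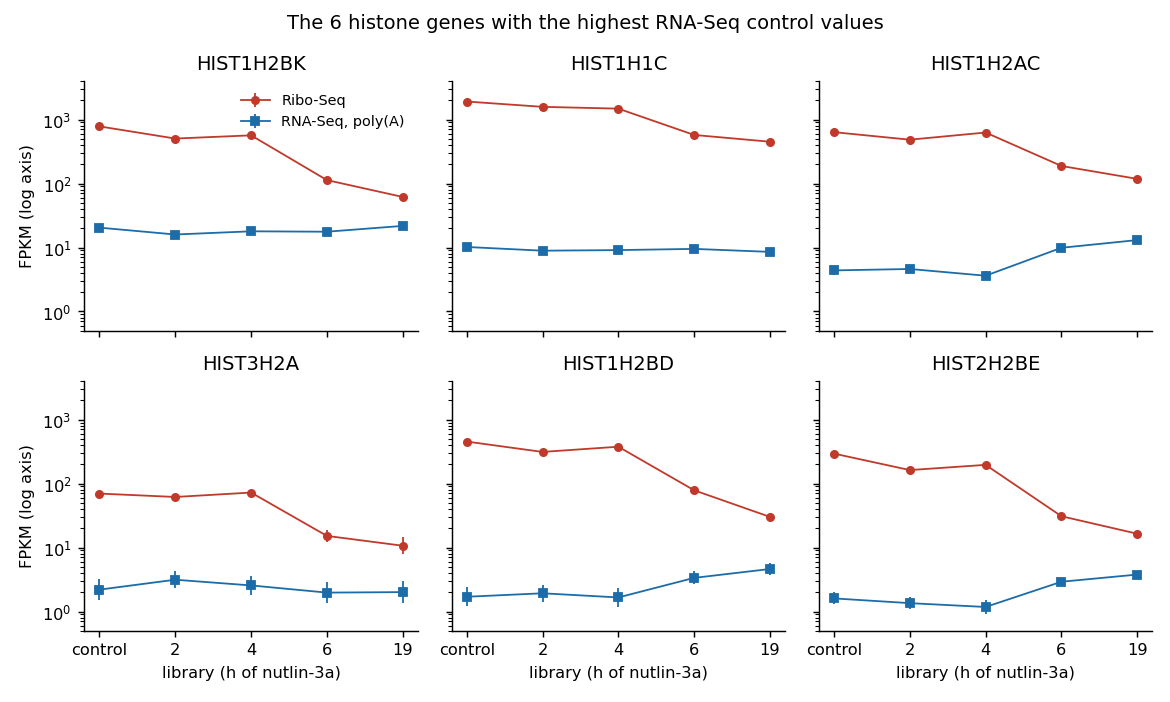
FPKM (log axis) of the 6 histone genes with the highest RNA-Seq control values in the 5 libraries of Ribo-Seq (circles) and of poly(A) RNA-Seq (squares), with bars for the 95% counting interval, 1 library per point. Ribo-Seq goes down from 4 h on in all 6, while RNA-Seq goes up at 6 and 19 h in HIST1H2AC, HIST1H2BD and HIST2H2BE.

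The promoters of these 3 genes and of HIST1H2BK are shown for comparison with those above, again as the 120 bases before the start with the 5 motifs in capitals.
HIST1H2AC, chr6:26124052-26124171, plus strand: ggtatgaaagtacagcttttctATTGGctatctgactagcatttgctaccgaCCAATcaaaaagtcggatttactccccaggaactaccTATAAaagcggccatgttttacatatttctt
HIST1H2BD, chr6:26158001-26158120, plus strand: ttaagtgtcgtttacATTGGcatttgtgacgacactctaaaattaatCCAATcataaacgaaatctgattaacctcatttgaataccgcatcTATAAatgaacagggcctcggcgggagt
HIST2H2BE, chr1:149886683-149886802, minus strand: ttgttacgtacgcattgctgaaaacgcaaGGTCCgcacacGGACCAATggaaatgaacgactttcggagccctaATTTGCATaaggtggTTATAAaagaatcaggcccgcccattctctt
HIST1H2BK, chr6:27146859-27146978, minus strand: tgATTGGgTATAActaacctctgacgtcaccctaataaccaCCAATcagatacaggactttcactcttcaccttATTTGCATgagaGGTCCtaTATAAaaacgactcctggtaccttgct
All 4 hold CCAAT and TATAA. HIST2H2BE and HIST1H2BK hold the octamer in the printed bases, HIST1H2AC holds it farther upstream in the 250 bases searched, and in HIST1H2BD it was not found. In HIST2H2BE the reverse complement of GGTCC and CCAAT share letters. None of the 5 motifs set the 3 genes with a higher poly(A) level apart from HIST1H2BK, whose poly(A) level was not higher.

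On the median, genes seen in poly(A) RNA had the smaller Ribo-Seq falls. At 19 h the 7 genes with at least 1 FPKM in the RNA-Seq control had a median Ribo-Seq log2 change of -3.66 (-4.77 to -2.09). The 20 below 1 FPKM had -4.62 (-6.62 to -1.51), and the 12 that are not in the RNA-Seq table had -5.32 (-6.33 to -3.31). The ranges of the 3 sets overlap, and the share of polyadenylated RNA in each Ribo-Seq level was not measured.

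The genes that serve histone supply were lower as well, but by less and not all of them. Of 24 genes listed for histone transcription, mRNA processing and histone chaperoning, 16 passed the Ribo-Seq filter, 7 were at least 2-fold lower at 6 h (7.89% of all transcripts) and 8 at 19 h (14.3%), and none was 2-fold higher (5.42% and 6.19%). Their median log2 change was -0.64 at 6 h and -0.96 at 19 h, against -0.014 and -0.18 over all transcripts. SLBP, the stem-loop binding protein, stood at 73.1, 70.6, 43.3, 24.5 and 26.1 FPKM in Ribo-Seq and was at -0.76 ± 0.06 at 4 h, when the histone median was -0.30. ASF1B, a chaperone of H3 and H4, went from 31.1 to 3.81 FPKM at 6 h and 0.502 at 19 h. CCNE2, a cyclin E, was under the filter and was listed at 4.26, 3.82, 1.41, 0.089 and 0.039 FPKM, and NPAT, also under it, at 1.32 FPKM in the control and 0.971 at 19 h. In poly(A) RNA SLBP went from 46.1 to 16.3 FPKM, and 9 of 18 tested genes of the list were at least 2-fold lower at 19 h (6.42% of all transcripts).

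Most S phase genes were also much lower at 6 h, and some of them were 2-fold lower at 4 h, when no histone gene was. Of 32 genes for DNA synthesis 25 passed the Ribo-Seq filter. At least 2-fold lower were 4 of the 25 at 4 h (0.398% of all transcripts), 21 at 6 h (7.89%) and 23 at 19 h (14.3%), with medians of -0.36, -2.93 and -3.58. None of the 39 histone genes was 2-fold lower at 4 h, although 1 was after centring on the median of all transcripts. Below that fold the order was not the same. At 2 h the histone median was -0.39 and the S phase median 0.07. RRM2, a subunit of ribonucleotide reductase, went from 136 FPKM in Ribo-Seq to 10.5 at 6 h and 1.93 at 19 h. PCNA, the sliding clamp of the replication fork, went from 187 to 156 and 120 FPKM (-0.64 ± 0.05 at 19 h) and was not 2-fold lower. From 6 to 19 h the S phase median step was -0.73, with 7 of 25 at least 2-fold lower, against -1.39 for the histone genes. The floor of 1 FPKM cuts short this step, and the 19 h change, for S phase genes that fell below it. PRIM1, for example, went from 0.471 to 0.088 FPKM in this step and counts as unchanged. The lowest 19 h value of the 39 histone genes was 1.06 FPKM, so the 2 median steps are not directly comparable. In RNA-Seq the S phase median was -0.65 at 4 h, and 24 of 29 genes were at least 2-fold lower at 6 h (4.87%) and 26 at 19 h (6.42%). The part of S phase exit in the histone falls was not tested.

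Histone genes without these symbols, listed as replication-independent, gave a comparison within the histone family. How far the mRNA of each depends on S phase was not tested. Of 12 listed, 9 passed the Ribo-Seq filter, and of these 3 were at least 2-fold lower at 6 h (7.89% of all transcripts). At 19 h 4 were (H2AFZ, H2AFV, H2AFX and CENPA), against 14.3% of all transcripts. H3F3B, which encodes the replacement histone H3.3, stood at 149.96, 151, 198, 119 and 119 FPKM in Ribo-Seq (-0.33 ± 0.04 at 19 h). H1F0, the linker histone of resting cells, went from 70.3 to 38.7 FPKM (-0.86 ± 0.06). H2AFZ, which encodes the variant H2A.Z, fell from 778 to 218 FPKM at 6 h and 80.7 at 19 h (-3.27 ± 0.06), within the range of the replication-dependent H2A genes, and in RNA-Seq it fell from 443 to 62.0 FPKM.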

How the data were processed

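BJ cells were profiled by RNA-Seq on poly(A) RNA and by Ribo-Seq, with 5 libraries of each and 1 library per group. Alignment was done by the authors with Bowtie against Ensembl release 65 protein-coding transcripts (the submitters' processing notes name hg19), reads with a single hit were kept, and FPKM values were deposited in 2 tables. Reads shared by near-identical histone genes are therefore lost. The methods count Ribo-Seq reads in the coding sequence, but the deposited columns are named as totals and carry full transcript lengths, so which reads they hold is not settled. The study lists only some of these Ribo-Seq libraries. For those it gives smaller shares of reads in the coding sequence, and in frame with the codons, than for its other Ribo-Seq libraries. The assay of each table was taken from its name. No per-sample column was left out (0), and neither table holds a value of 0.

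FPKM under 1 was set to 1, and changes are log2 ratios to the control of each assay, among transcripts with a mean of at least 5 FPKM over the 5 libraries. A gene was counted as lower or higher from 2-fold on. Read numbers could be recovered from the steps between FPKM values for 95.8% of Ribo-Seq and 89.3% of RNA-Seq transcripts and for all 40 histone genes. They gave counting errors, which do not cover biological or library variation, and PCR copies could not be told apart. With 1 library per group no p-value was computed.

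The genes and lists were chosen with earlier results of these data known. In each class the 4 genes highest in the Ribo-Seq control were named, with the 6 highest in the RNA-Seq control, the largest and smallest 19 h change of each class, and fixed genes of the lists. Names other than these, such as HIST2H2AA3 and HIST1H2AG, were chosen after their values were seen. Alternatives were a pseudocount of 1, a floor of 5 FPKM, no filter, a mean of at least 20 FPKM, the 2 h library as baseline, centring on the median of all transcripts, and a fold that also exceeds its 95% counting interval. Promoters came from RefSeq (GRCh38.p14), with 35 genes matched and 32 promoters found. Python 3.11.15, pandas 2.3.3, numpy 2.4.6 and scipy 1.17.1 were used, and scripts were tested on simulated data.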

Additional observations from a re-analysis of the deposited data

Results flagged for a closer look

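HIST1H3H and HIST1H1E drew attention because their Ribo-Seq changes went in opposite directions at different times, each beyond the 95% counting interval. HIST1H3H had a log2 change of 0.267 at 4 h and -4.70 at 19 h, and HIST1H1E of 0.127 at 4 h and -1.93 at 19 h. HIST2H2AA3, with at most 82 reads in a Ribo-Seq library, had 1.20 at 4 h and -4.25 at 19 h without the floor. With 1 library per time, the differences between the times were not tested.

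HIST1H2AC, HIST1H2BD and HIST2H2BE went in opposite directions in the assays at 19 h. The log2 change was 1.58 in RNA-Seq and -2.43 in Ribo-Seq for HIST1H2AC, 1.44 and -3.91 for HIST1H2BD, and 1.24 and -4.16 for HIST2H2BE. The difference between the assays was not tested for want of replicates.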

How the results depend on the processing

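Under the 7 alternatives no change of 2-fold or more turned its direction, and 228 of 259 alternative values stayed within 1.5 times the main count or the 95% counting interval of the main median. The Ribo-Seq counts stayed at 39 or 40 histone genes at least 2-fold lower at 6 and 19 h. With the 2 h library as baseline the median log2 change of the histone genes was 0.127 at 4 h, -2.61 at 6 h and -4.06 at 19 h, and at 19 h the H1, H2B and H4 medians were -4.08, -3.83 and -3.46. The small 4 h medians thus changed sign with this baseline, also those of H2A, H2B, H3 and H4 (0.127, 0.0762, 0.255 and 0.137). Centring on all transcripts, whose median shifted by 0.107 at 4 h and -0.179 at 19 h, gave a median of -0.407 and 1 histone gene 2-fold lower at 4 h, and medians of -4.52 for H3 and -3.62 for H4 at 19 h. Without the filter HIST2H2AA3 became the 1 gene 2-fold higher at 4 h in Ribo-Seq, and 3 genes were 2-fold higher at 19 h in RNA-Seq, where the main count was 1. In RNA-Seq a floor of 5 FPKM left 0 genes 2-fold higher at 6 h, and the 2 h baseline gave a 19 h median of 0.447. The control ratio of Ribo-Seq over RNA-Seq had a median of 7.32 with a floor of 5 FPKM. No histone gene had a mean of 20 FPKM in RNA-Seq, so that filter gave no value there. No paired analysis was possible because every group is a single library. Depth limits the 19 h Ribo-Seq values, with 11 reads for the shallowest gene that passed the filter, and 15 of 28 genes in the RNA-Seq control had 10 reads or fewer.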
